A study of Mus musculus with 6 samples.

Results

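Imprinted growth regulator genes were examined in cultured smooth muscle cells of the mouse aorta, which contract and hold the vessel's tone. The set was given as 10 genes matched by symbol: H19, Igf2, Meg3, Dlk1, Cdkn1c, Peg3, Plagl1, Mest, Grb10 and Ndn. Of these, 7 were present among the 12389 genes of the per-library table, and all 7 passed the filter on low values. Cdkn1c, Plagl1 and Mest were not analysed here. The 7 had been chosen on their values in these libraries, both KO against WT and the spread by replicate number, so these are described here and support nothing.

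RNA was collected from 6 untreated cultures grown from explants of thoracic aorta at passage 6 or below, 3 of them wild type (WT) and 3 with LRRC8A knocked out (KO) in smooth muscle. LRRC8A is the obligatory subunit of an anion channel that opens when cells swell. The Cre driver, the age and the strain of the mice were not given in the sources used here, and since the genotype label is Wild Type throughout, the sample titles gave the groups. The submitters call the cultures independent biological replicates without saying what a shared number marks. Poly(A) RNA was sequenced, and the deposited values, called scaled reads below, are estimated reads after a library-wise scaling. Estimated totals ran from 31.0 M to 47.9 M reads. Lrrc8a itself had 1221 to 2578 scaled reads in WT and 506 to 868 in KO, which is the direction of the titles. The libraries did not form a uniform set. Of 7 smooth muscle markers 6 were present, with a summed level of 16520 to 205102 in WT and 31498 to 106017 in KO, and Myocd was not analysed here. All 5 fibroblast markers were also present, at a sum of 18011 to 31215 in WT and 16870 to 40166 in KO. Single markers did not follow this sum. In KO replicate 3 Pdgfra was at its highest, 15182, while Dcn, Dpt and Pi16 were at their lowest, 1362, 305 and 14.9. Lum was lowest in WT replicate 1, at 4.74. Xist, the RNA of the inactive X chromosome, had 21672 scaled reads in KO replicate 2 and at most 7.11 in each of the other 5 libraries, and the Y-linked gene Ddx3y had 1.16 in KO replicate 2 and 1339 to 8729 in the others.

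Imprinted genes are read mainly from the allele of 1 parent, because DNA methylation set in the egg or the sperm marks a control region near them. H19, Meg3 and Grb10 are expressed mainly from the maternal allele in tissues outside the brain, and Igf2, Dlk1, Peg3 and Ndn from the paternal allele. Many of them act on fetal growth, are high in the embryo and fall after birth. In the vessel wall H19 is known to be low in healthy adult artery and to reappear in injured and cultured smooth muscle. The tables give 1 total per gene, so neither allele can be told from the other.

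Sequences of H19, Grb10, Meg3 and Dlk1 are shown first, H19 for the microRNA it carries and the others for their promoters. H19 carries the microRNA miR-675 in an exon (chr7:142577078-142577133 in GRCm38.p6, minus strand). The mature forms are printed 5′ to 3′ from RefSeq with the seed, bases 2 to 8, in capitals. The microRNA itself was not measured in these poly(A) libraries.
mmu-miR-675-5p: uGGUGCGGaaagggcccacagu
mmu-miR-675-3p: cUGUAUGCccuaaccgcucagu
The seeds of the 5p and 3p forms differ, so the pair forms no seed family.

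The 250 bases before the most upstream RefSeq start of Grb10, Meg3 and Dlk1 (build GRCm38.p6) are shown because these promoters differ in CpG content. Imprint methylation marks control regions, whose positions were not compared with these windows. Methylation was not measured. Each CpG is in capitals. The Grb10 window is chr11:12037421-12037670 on the minus strand, the Meg3 window chr12:109540746-109540995 and the Dlk1 window chr12:109452573-109452822, both on the plus strand.
Grb10: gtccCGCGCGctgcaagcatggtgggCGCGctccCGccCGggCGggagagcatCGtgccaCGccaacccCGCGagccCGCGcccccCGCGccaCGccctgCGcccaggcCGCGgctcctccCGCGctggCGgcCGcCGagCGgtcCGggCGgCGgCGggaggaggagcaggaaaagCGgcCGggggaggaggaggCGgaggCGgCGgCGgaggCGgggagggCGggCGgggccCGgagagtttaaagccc
Meg3: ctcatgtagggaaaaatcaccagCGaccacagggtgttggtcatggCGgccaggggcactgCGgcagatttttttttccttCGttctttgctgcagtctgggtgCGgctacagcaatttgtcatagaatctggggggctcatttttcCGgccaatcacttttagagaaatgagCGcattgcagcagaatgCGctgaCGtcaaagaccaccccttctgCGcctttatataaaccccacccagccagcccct
Dlk1: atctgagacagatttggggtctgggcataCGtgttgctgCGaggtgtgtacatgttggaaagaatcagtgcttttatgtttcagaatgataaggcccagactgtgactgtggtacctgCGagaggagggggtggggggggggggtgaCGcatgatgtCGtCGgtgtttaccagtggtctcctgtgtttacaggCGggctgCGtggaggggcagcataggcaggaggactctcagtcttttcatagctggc
The Grb10 window held 40 CpGs and was 81.2% G or C, more CpGs than 98.7% of 32851 promoter windows of the same length. The Meg3 window held 10 CpGs and the Dlk1 window 8, against a median of 6 over all windows. A second, downstream RefSeq start gave Grb10 a window with 8 CpGs and Meg3 a window with 0. Peg3 had 8 and Ndn 5, and the 4 Igf2 windows had 1 to 22. The hexamer TGCCGC, the core recognised by the imprint-protecting zinc finger protein ZFP57, was searched on both strands. It occurred 1 time in the Meg3 window, beginning 190 bases before the start, and in neither the second Meg3 window nor any Grb10, Dlk1, Peg3, Igf2 or Ndn window. Of all promoter windows 8.68% hold it. The control regions were not searched as such, so a window without the hexamer does not show that a gene lacks a ZFP57 site. RefSeq promoter windows matched 6 of the 7 genes, all but H19.

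H19 is a maternally expressed long noncoding RNA that lies beside Igf2 on chromosome 7 (ENSMUSG00000000031, GRCm38 142575529 to 142578143, minus strand). In the order of replicates 1, 2 and 3, WT libraries held 279, 1695 and 38.0 scaled reads and KO libraries 263, 2391 and 23.5, and the same order is used throughout. Replicate 2 was the highest and replicate 3 the lowest library in both groups, and the groups overlapped over almost their whole range. The highest library was 102 times the lowest, whereas same-numbered KO and WT libraries differed by -0.08, 0.50 and -0.65 on the log2 scale. The low values of replicate 3 rested on about 48.0 estimated reads in WT and 33.0 in KO. Replicate number accounted for 99.1% of the log2 sum of squares of H19 over the 6 libraries and genotype for 0.025%. The WT mean was 670 ± 895 and the KO mean 893 ± 1303 (SD, n = 3 each).

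Igf2 encodes insulin-like growth factor 2, a paternally expressed ligand of the IGF1 receptor (ENSMUSG00000048583, chromosome 7, 142650766 to 142666816, minus strand). It had 1903, 972 and 562 scaled reads in WT and 128, 3089 and 234 in KO. The lowest and the highest library were both KO, and the WT libraries lay between them. The difference by pair was -3.87, 1.67 and -1.25 on the log2 scale, so replicate 2 went against replicates 1 and 3. Replicate number accounted for 37.0% of the Igf2 sum of squares, against a median of 54.9% over all genes tested. H19 and Igf2 share enhancers and are read from opposite parental alleles. The ratio of H19 to Igf2 was 0.146, 1.74 and 0.0676 in WT and 2.05, 0.774 and 0.10 in KO, a 30.3-fold range with no order by genotype. Replicate 3 had the lowest ratio in each group, and the highest stood in replicate 2 of WT and replicate 1 of KO. The annotation places Gm49394 on the same strand over Igf2 exons and Igf2os on the other strand, and since use of strand in counting is not given, Igf2 values may include reads of either.

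**Figure D1:**
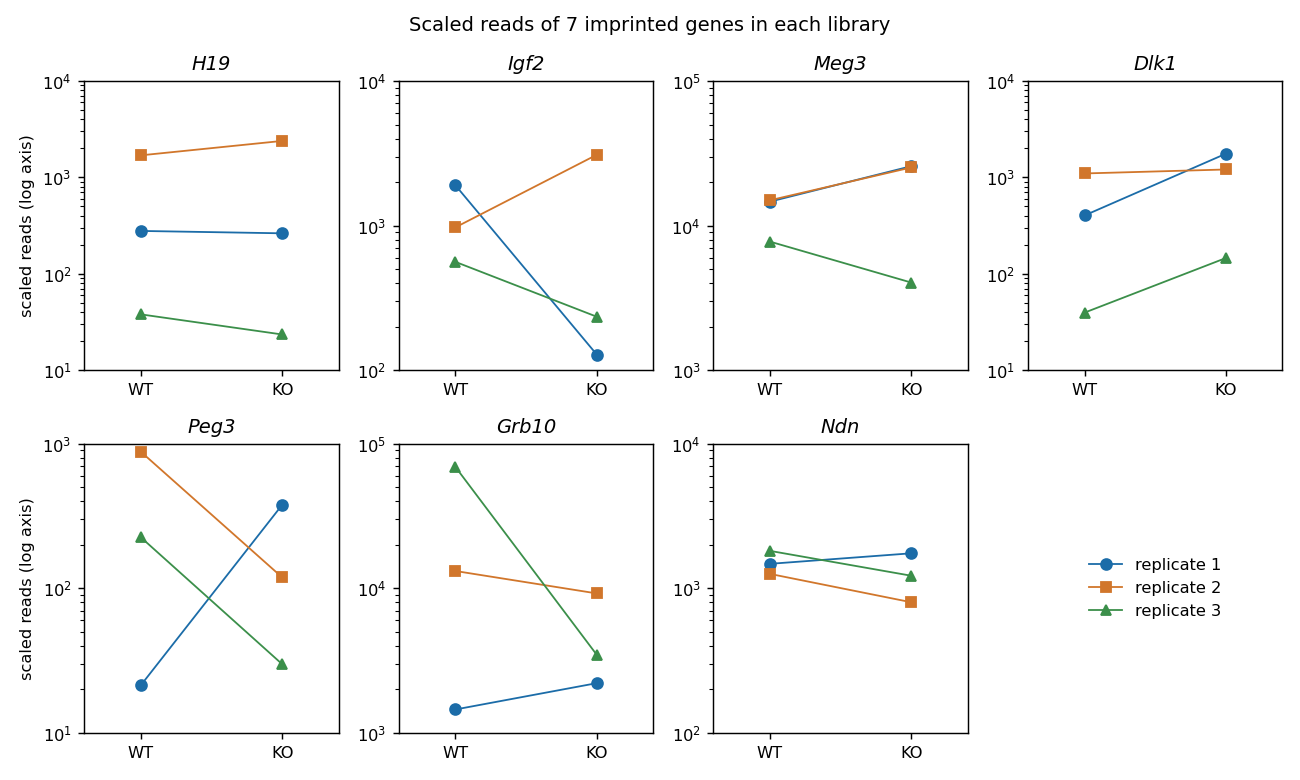
Scaled reads (log axis) of each of the 7 genes in WT and KO, with a line joining libraries of the same replicate number. H19 alone keeps 1 order of numbers in both groups (1695 and 2391 in replicate 2, 38.0 and 23.5 in replicate 3). Lines cross for each of the other genes, and Ndn stays between 801 and 1816.

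Meg3 is the maternally expressed long noncoding RNA of the Dlk1-Dio3 domain (ENSMUSG00000021268, chromosome 12, 109541001 to 109571726, plus strand). It had 14650, 14977 and 7752 scaled reads in WT and 25780, 25255 and 4037 in KO. Replicates 1 and 2 were alike within each group and replicate 3 was the lowest of each, and the KO libraries included both the highest values and the lowest. By pair the log2 difference was 0.82, 0.75 and -0.94. Rian and Mirg are further noncoding RNAs of the same maternal strand, thought to be parts of 1 long transcript with Meg3. Rian had 3640, 7852 and 10451 scaled reads in WT and 12451, 10526 and 4800 in KO, so in WT replicate 3 was its highest library where it was the lowest for Meg3. The ratio of Meg3 to Rian was 4.02, 1.91 and 0.742 in WT and 2.07, 2.40 and 0.841 in KO, lowest in replicate 3 of both groups. The ratio of Meg3 to Mirg was also lowest in replicate 3, at 24.0 in WT and 26.6 in KO against 47.7 to 59.8 in the other 4 libraries. Mirg had 295 to 323 in WT and 152 to 439 in KO. Gm26906 overlaps Meg3 exons on the other strand, so Meg3 values are uncertain to the extent that strand was not used.

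Dlk1 is the paternally expressed gene of that domain and encodes a transmembrane protein of the Delta family that restrains adipocyte differentiation (ENSMUSG00000040856, chromosome 12, 109452823 to 109463336, plus strand). It had 403, 1099 and 39.6 scaled reads in WT and 1763, 1209 and 146 in KO. Replicate 3 was the lowest library in both groups, and each KO library was above its same-numbered WT library, by 2.12, 0.14 and 1.83 on the log2 scale. The groups overlapped, since KO replicate 3 was below WT replicates 1 and 2. The WT mean was 514 ± 539 and the KO mean 1039 ± 822 (SD, n = 3 each). Replicate number accounted for 82.1% of the Dlk1 sum of squares and 80.3% of that of Meg3. Of 4 adipocyte markers Fabp4 and Lpl were present, summing to 6585, 9811 and 49.8 in WT and to 15910, 3629 and 3434 in KO, lowest in WT replicate 3 like Dlk1. The sum was mostly Lpl in 5 of the 6 libraries, and Fabp4 by itself was lowest in KO replicate 3, at 17.8 against 28.5 in WT replicate 3. Their part in the Dlk1 values was not tested. The ratio of Meg3 to Dlk1 ranged from 13.6 to 196 and was highest in WT replicate 3.

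Across H19, Meg3 and Dlk1 both replicate 3 libraries were below the other 4. That held for 3 of the 7 genes and for 16.7% of all genes tested. The choice of genes took the spread by replicate number into account, so nothing is read from this count. Other groups of genes moved with the number too. All 12 proliferation genes on a fixed list, among them Mki67 and Top2a, had both replicate 3 libraries above the other 4, where 17% of all genes tested did. They summed to 8147, 13648 and 31421 in WT and to 7845, 25574 and 48820 in KO. The smooth muscle markers summed to 16520, 25282 and 205102 in WT and 31498, 32534 and 106017 in KO, highest in replicate 3 of each group. The sum was mostly Acta2 and Tagln. Both replicate 3 libraries were above the other 4 for 3 of the 6 markers, and Smtn had 3049, 2474 and 2911 in WT, highest in replicate 1. Of 6 mesothelial and epithelial markers 4 were present, at a summed level of 5350 to 9801 in WT and 1098 to 5766 in KO. Msln, a mesothelial surface protein, had 2858, 2514 and 119 in WT and 711, 2597 and 23.5 in KO, with replicate 3 lowest in both groups, and Krt18 was listed at 0 in KO replicate 3. Both replicate 3 libraries were below the other 4 for 1 of the 4 markers, Msln. Upk3b had 5523, 2250 and 5235 in WT and Krt19 had 2140, 554 and 701 in KO, where replicate 2 was the lowest. Of 5 endothelial markers only Kdr was present (42.7 to 433 in WT, 21.3 to 423 in KO), of 5 leukocyte markers 3 were (1233 to 1594 in WT, 392 to 1197 in KO), and of 5 skeletal myoblast markers none. In RNA from a whole culture, fewer cells of a type and less RNA per cell cannot be told apart, and the part of these marker and proliferation genes in the values of H19, Meg3 and Dlk1 was not tested.

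**Figure D2:**
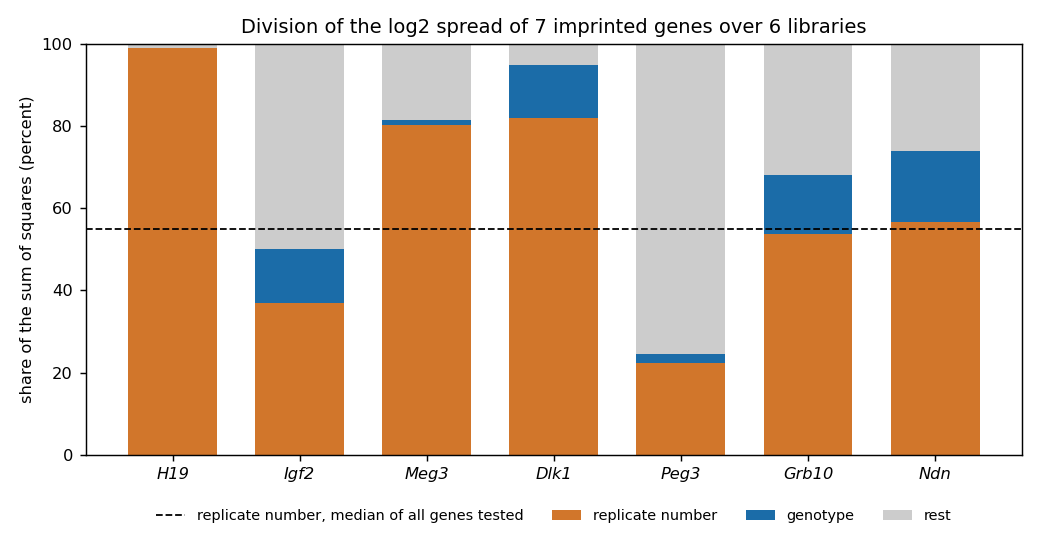
Share of the log2 sum of squares over 6 libraries that goes with replicate number, genotype and the rest, as stacked bars for each gene. Replicate number takes 99.1% for H19, 80.3% for Meg3 and 82.1% for Dlk1, and the dashed line marks its median of 54.9% over all genes tested.

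Grb10 encodes an adaptor that binds the insulin and IGF1 receptors and restrains growth (ENSMUSG00000020176, chromosome 11, 11930508 to 12038683, minus strand). It had 1452, 13178 and 69192 scaled reads in WT and 2209, 9220 and 3471 in KO. WT replicate 3 stood far above the other 5 libraries, and replicate 1 was the lowest in both groups. By pair the log2 difference was 0.60, -0.52 and -4.32, so the pairs did not share a direction. The WT mean was 27940 ± 36202 and the KO mean 4966 ± 3737 (SD, n = 3 each). WT replicate 3 also had the highest summed smooth muscle markers of the 6 libraries, 205102. KO replicate 3 had the second highest sum, 106017, with a Grb10 value within the range of the remaining libraries. Taken singly, Acta2, Tagln and Cnn1 had KO replicate 3 second highest, and Myh11, Smtn and Lmod1 did not. The part of the marker level in the Grb10 value was not tested.

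Peg3 encodes a paternally expressed zinc finger protein (ENSMUSG00000002265, chromosome 7, 6703892 to 6730431, minus strand). It had 21.3, 881 and 225 scaled reads in WT and 378, 119 and 29.9 in KO. The lowest and the highest library were both WT, and the KO libraries lay between them. The lowest value corresponded to about 18.0 estimated reads. By pair the log2 difference was 4.02 in replicate 1, -2.87 in replicate 2 and -2.83 in replicate 3. Replicate number accounted for 22.4% of the Peg3 sum of squares, the smallest share of the 7 genes.

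Ndn encodes necdin, a paternally expressed protein of the MAGE family that restrains cell division (ENSMUSG00000033585, chromosome 7, 62346569 to 62350262, plus strand). It had 1477, 1258 and 1816 scaled reads in WT and 1747, 801 and 1222 in KO. Its highest library was 2.27 times its lowest, the smallest range of the 7 genes, and the groups overlapped. The WT mean was 1517 ± 281 and the KO mean 1257 ± 474 (SD, n = 3 each).

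Apart from Ndn, the genes spread widely over the libraries. The SD of log2(value + 2) over the 6 libraries was 2.69 for H19, 2.10 for Dlk1, 2.04 for each of Peg3 and Grb10, 1.75 for Igf2, 1.04 for Meg3 and 0.43 for Ndn. The median over all genes tested was 0.36. H19 exceeded 99.1% of all genes tested, Dlk1 97.7%, Peg3 and Grb10 97.6% each, Igf2 96.4%, Meg3 90.2% and Ndn 62.3%. These ranks describe genes chosen with their values known.

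**Figure D3:**
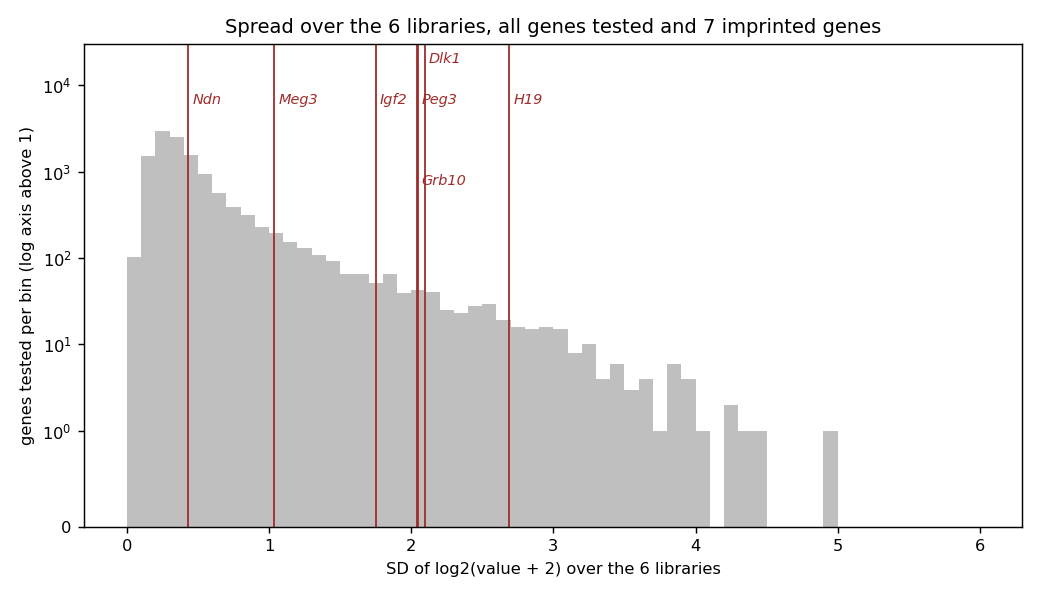
Number of genes tested (log axis above 1) by SD of log2(value + 2) over the 6 libraries, with a red line at each of the 7 genes. Ndn lies near the bulk at 0.43, and H19 at 2.69 is the farthest out of the 7.

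Levels between genes were compared per kb of annotated exon, the union of all isoforms, which understates genes with many rarely used exons. The mean over the 6 libraries was 1810 scaled reads per exon kb for Grb10, 852 for Meg3, 375 for Ndn, 318 for H19, 201 for Igf2, 137 for Dlk1 and 20.7 for Peg3. The ranges of neighbours in this order overlapped, at 160 to 7613 for Grb10 and 223 to 1425 for Meg3, so the order is not fixed beyond the spread. Grb10 was the highest of the 7 in 3 libraries and Meg3 in the other 3, and Peg3 was the lowest in 4. The ranges of H19 (9.55 to 972), Igf2 (22.4 to 540) and Dlk1 (6.99 to 312) overlapped almost wholly.

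Without the replicate block, the KO against WT difference was close to its standard error or below it for each of these genes. By limma on log2(value + 2) the mean difference was 1.36 (SE 1.42) for Dlk1, 0.21 (SE 0.75) for Meg3, -0.08 (SE 1.95) for H19, -0.33 (SE 0.32) for Ndn, -0.56 (SE 1.48) for Peg3, -1.15 (SE 1.19) for Igf2 and -1.41 (SE 1.37) for Grb10. With the replicate number as a block the SE of H19 was 0.31, that of Dlk1 0.43 and that of Meg3 0.39, while that of Peg3 was 1.68. The block left the mean differences unchanged, so that of Dlk1, 1.36, then stood well above its SE. In the authors' deposited table, which compares group means, the log2 ratio was 0.41 for H19, 0.01 for Igf2 and -2.49 for Grb10. At an adjusted p of 0.05 limma called none of the 7 and 0% of all genes, with the replicate block or without it, and in the authors' deposited table none of the 7 passed an FDR of 0.05, with 0.525% of all genes called. At an unadjusted p under 0.05 limma had 0 of the 7 with 3.62% of all genes, and with the replicate block 1 of the 7, Dlk1, with 7.42%. The KO and WT libraries overlapped for all 7, and 8.43% of all genes tested did not overlap. Nothing is read from these counts, since the contrast was known when the genes were chosen.

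**Figure D4:**
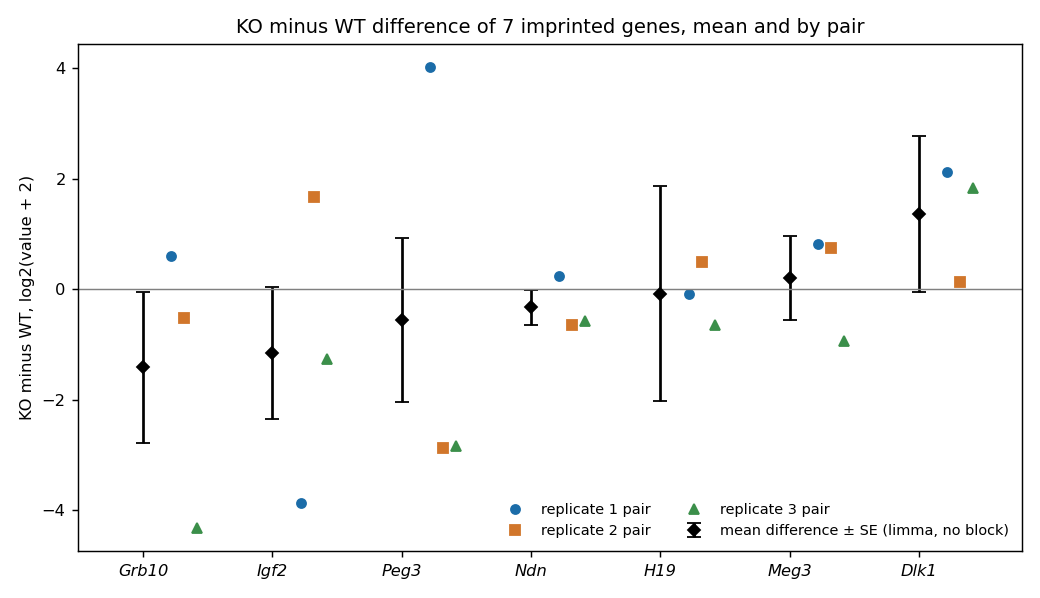
KO minus WT difference on the log2(value + 2) scale for each gene, as the limma mean with its SE (black) and as the difference in each same-numbered pair (coloured). The 3 Dlk1 pairs lie above 0, from 0.14 to 2.12, while pairs of the other 6 genes lie on both sides of 0.

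Single libraries set most of these differences. The Grb10 difference was -0.08 without WT replicate 3 and -2.87 without WT replicate 1. That of Dlk1 was 0.03 without WT replicate 3 and 2.47 without KO replicate 3. Without KO replicate 2, the Xist-expressing library, H19 was at -1.70 and Igf2 at -2.53, and without KO replicate 3 H19 was at 1.58. Igf2 was at -0.25 without KO replicate 1. Peg3 went from -1.98 without WT replicate 1 to 0.64 without WT replicate 2, and Meg3 from -0.24 without KO replicate 1 to 1.10 without KO replicate 3. Ndn ran from -0.60 to -0.04.

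Other imprinted genes were taken from general knowledge as 2 lists, maternally and paternally expressed. Each list is named for the allele reported where its genes are imprinted, and whether they are imprinted in these cells was not examined. Of these 49 genes 27 were tested, with a median SD over the 6 libraries of 0.44 and a median log2 difference of -0.11, against 0.00 over all genes tested. Since the 7 were chosen with their spread known, nothing is read from a lower spread in the 27. It reached 2.18 in Nap1l5, 1.84 in Slc22a18 and 1.44 in Ddc, and Nap1l5 is named here after its values were seen. Of the 27, 10 were above 0 and 17 below, and limma called none at an adjusted p of 0.05. The authors' deposited table called none either. At an unadjusted p under 0.05 there was 1, Nnat, which encodes the membrane proteolipid neuronatin. Nnat had 200, 221 and 254 scaled reads in WT and 74.9, 42.8 and 116 in KO. All 3 KO libraries were below all 3 WT libraries, the 1 gene of 27 whose groups did not overlap, against 8.43% of all genes tested. Its limma log2 difference was -1.61 (SE 0.51, adjusted p = 0.999), and it was not called in the authors' deposited table (FDR 0.292).

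Among the 15 maternally expressed genes tested of 24, the median log2 difference was -0.09, with 6 above 0 and 9 below. Those with the smallest limma p were Cobl, an actin nucleator (-1.45, SE 0.67), Slc22a18, a solute carrier of the Kcnq1 domain (-1.94, SE 1.11), and Igf2r, the receptor that clears IGF2 (-0.47, SE 0.30). Among the 12 paternally expressed genes tested of 25 the median was -0.34, with 4 above 0 and 8 below. After Nnat, the smallest p belonged to Snrpn, a splicing factor gene (-0.58, SE 0.40), and Ddc, the aromatic amino acid decarboxylase (-1.41, SE 1.06). None of these 5 passed in limma, each with an adjusted p of 0.999.

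The genes beside the 7 on the chromosome are given as a description, since the 7 were chosen with their spread known. Within 500 kb of a start, 17 tested genes that are not among the 7 had a median SD over the 6 libraries of 0.43 and a highest of 1.44, and a median log2 difference of 0.02. Around H19 and Igf2, Lsp1 lay 115 kb before H19 with an SD of 0.44, and R74862 lay 371 kb after Igf2 with 0.34. Cd81 and Tssc4, genes of the adjoining Kcnq1 domain on the maternally expressed list, had 0.25 and 0.24. Beside Peg3, Zfp28 and Zfp954 had 0.24 and 0.41. The nearest on each side of Grb10 were Ddc, 116 kb before it, with an SD of 1.44 and 97.2, 52.5 and 244 scaled reads in WT and 19.3, 20.8 and 144 in KO, and Cobl, 306 kb after it, with an SD of 1.21 and 718, 396 and 1194 in WT and 124, 643 and 204 in KO. The third tested neighbour of Grb10 was Fignl1, 143 kb before it, with an SD of 1.18 and 173, 238 and 610 in WT and 144, 669 and 1070 in KO. Grb10, Ddc and Cobl had WT replicate 3 as their highest library, while Fignl1 was highest in KO replicate 3 and next in KO replicate 2. KO replicate 3 was the second highest for Ddc, the fourth highest for Grb10 and the fifth for Cobl. Ndn was less spread than its 1 tested neighbour, Peg12, at 1.25.

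**Figure D5:**
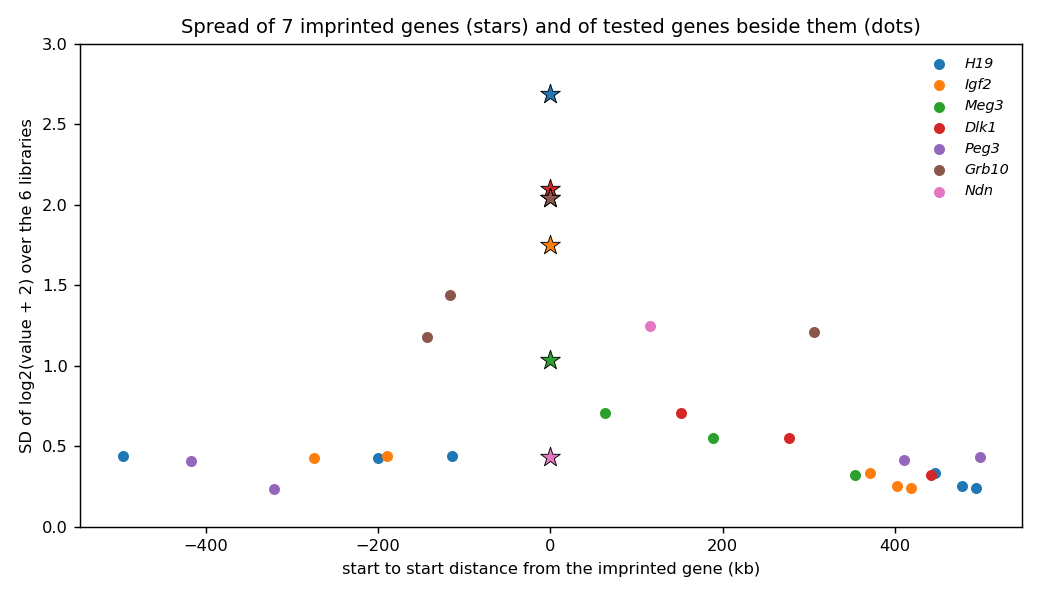
SD of log2(value + 2) over the 6 libraries for the 7 genes (stars) and the tested genes within 500 kb (dots), by start to start distance in kb. H19 stands at 2.69, above Igf2 at 1.75 and its other neighbours at 0.24 to 0.44, and Ndn at 0.43 lies below its neighbour at 1.25.

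The patterns most like those of the 3 most variable genes were found by the root-mean-square difference of centred log2 values over the 6 libraries. For H19 the nearest genes were Il33, an alarmin cytokine, at 0.77, Slfn3 at 0.82 and Ano1, a calcium-activated chloride channel, at 0.85. Il33 had 65.2, 690 and 43.5 scaled reads in WT and 181, 762 and 16.4 in KO, with replicate 2 highest and replicate 3 lowest in both groups. For Dlk1 they were Mtus1 at 0.52, Gabra3 at 0.56 and Rerg at 0.60, and for Peg3 Hmcn1 at 0.64, Elobl at 0.89 and Lmtk3 at 1.08. Among the 7 themselves the smallest difference was 1.09 for Ndn and Meg3, then 1.27 for Dlk1 and Meg3 and 1.45 for Dlk1 and H19. The measure is not scaled to spread, so a gene of low spread such as Ndn (SD 0.43) can come near without a shared pattern. Ndn was lowest in KO replicate 2, at 801, where Meg3 had 25255. Igf2 and H19, neighbours on the chromosome, differed by 1.95.

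Factors that set or keep imprints were described from a fixed list of 17, of which 13 were tested. Their median log2 difference was 0.32, with 10 above 0 and 3 below, and no gene of the list was called by limma or in the authors' deposited table. The number at an unadjusted p under 0.05 was 0, with 3.62% of all genes there, and 2 with the replicate block, with 7.42% of all genes there. This list too was chosen with earlier results of these data known, and its counts are a description. The smallest limma p belonged to Smchd1, a chromatin protein of the inactive X (0.39, SE 0.24), Ctcf, the insulator protein that binds the control region between H19 and Igf2 (0.32, SE 0.19), and Trim28, the corepressor recruited by ZFP57 (0.55, SE 0.35), each with an adjusted p of 0.999. Trim28 and Dnmt3a were the 2 under 0.05 with the block, and Dnmt3a is named because of that value. Zfp57, named after its values were seen, had 4915, 2236 and 980 scaled reads in WT and 4778, 2654 and 789 in KO. It was highest in replicate 1 and lowest in replicate 3 of both groups, whereas H19 was highest in replicate 2, and 98.7% of its sum of squares went with replicate number. WT and KO libraries put the 3 numbers in the same order for 30.7% of all genes tested.

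The IGF axis, in which Igf2 is a ligand and Grb10 a brake, was described from a fixed list of 18 ligands, receptors, adaptors, binding proteins and Igf2 mRNA binding proteins, of which 16 were tested. The median log2 difference was 0.19, with 9 above 0 and 7 below. limma called none at an adjusted p of 0.05, and 4 of the 16 reached an unadjusted p under 0.05, against 3.62% of all genes. With the replicate block 3 did, all but Igfbp2, against 7.42% of all genes. The list was chosen with earlier results of these data known, so nothing is read from these counts. Igfbp3, a carrier of IGFs, had 6014, 8053 and 24818 scaled reads in WT and 221, 267 and 2281 in KO, with all 3 KO libraries below all 3 WT libraries (limma log2 difference -4.37, SE 0.99, adjusted p = 0.999). With the replicate block in limma the SE of Igfbp3 was 0.32 and its adjusted p 0.111, the smallest of that fit and not under 0.05. Igfbp6 (2.12, SE 0.48) and Igfbp2 (-4.23, SE 1.44), other carriers of the family, were among the 4, and the fourth, Irs1, an adaptor of the receptor (0.63, SE 0.23), is named because of that count. By the authors' deposited table, Igfbp6 alone of the 16 had an FDR under 0.05.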

How the data were processed

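Stranded poly(A) libraries from 3 WT and 3 KO cultures were sequenced as paired ends, per the labels' protocols. For the authors' own processing, STAR, Partek and DESeq2 are named per the submitters' processing notes, with builds given as mm39 and GRCm39 and no roles stated, and whether strand was used in counting is not given in the sources used here. Of 12385 gene identifiers shared with GENCODE M21, 12341 had the same start, so coordinates are GRCm38 with the end 1 base before the deposited stop. The deposited per-library values are a scaled signal, not whole counts: low values lay at multiples of 0.712 to 1.18, the worth of 1 read, and 82.5% to 92.8% of those up to 50 reads were within 0.05 reads of a whole number. The authors' deposited table gives p-values with step-up FDR, a ratio and its log2, and group means as signal. Its signed fold change was not used.

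limma 3.58.1 (R 4.3.3) was fitted with a mean trend and robust priors on log2(value + 2) for the 12363 genes that reached a value of 10 in 3 or more libraries, which dropped 26. The tests were two-sided with Benjamini-Hochberg adjustment. Group SDs are of scaled reads. A limma p-value sets the KO against WT difference against the spread of these cultures within groups. With the block, that spread is what remains after genotype and number. In both fits it is moderated across genes. The genes and lists were chosen with earlier results of these data known. Named are the 7 genes, the 3 smallest p of each list, the 2 highest of each marker list where results turn on them, domain and nearest genes, and the 3 genes nearest in pattern. Other markers are named to set them beside the sum of their list. The fit was tested on simulated data, with the noise of each gene capped at the median residual SD of all genes, 0.36. Genes noisier than that median were thus not simulated, and the changed genes were drawn from those with a high mean level. Under these settings the fit recovered 42% of 100 genes given a log2 change of size 1 and 100% of 100 genes given one of size 3. There were 2 false calls. Recovery at the wide spread of most of the 7 genes was not tested, so the simulation does not show what the fit could detect in them.

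Same-numbered libraries deviated together, with correlations across genes of 0.43, 0.15 and 0.39 for numbers 1, 2 and 3. Differently numbered WT and KO libraries gave -0.40 to 0.02. The differences by pair and the replicate block therefore treat the number as pairing them, a choice that rests on these same data. The replicate 2 pair joins the Xist-expressing KO library to a WT library with almost no Xist. The main limma fit had no block, and its p-values are those given unless the block is named. The division of the spread takes sums of squares for genotype, number and rest. Alternatives were TMM, total and quantile scaling, pseudocounts of 1 and 10, no filter and one at 50, the other deposited table, limma-voom, a block on replicate number and omission of single libraries.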

Additional observations from a re-analysis of the deposited data

How the results depend on the processing

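limma called 0 genes higher and 0 lower in KO under each setting that kept all 6 libraries, while 447 genes reached an unadjusted p under 0.05 without the block, 399 with limma-voom and 917 with the replicate block. Leaving out 1 library gave 0 genes higher and 0 to 1 lower, the 1 being Glipr1 without KO replicate 1, and 312 to 691 at an unadjusted p under 0.05. No gene of the imprinted, imprint upkeep, IGF, CDK and proliferation lists passed under any setting run, and the replicate block changed no call: it gave 0 genes higher and 0 lower. Scaling, pseudocount, filter, table and limma-voom kept the sign of the 7 differences, with 1 exception: H19 was at 0.11 with quantile normalization. Their ranges over these settings were 1.27 to 1.39 for Dlk1, 0.21 to 0.24 for Meg3, -0.57 to -0.31 for Peg3, -1.16 to -1.09 for Igf2, -1.42 to -1.38 for Grb10 and -0.34 to -0.30 for Ndn. Leaving out 1 library turned the sign for 2 of 6 libraries with H19 and Peg3 and 3 of 6 with Meg3, and the cause was not tested beyond the smaller group. The median of the maternally expressed list was 0.03 without WT replicate 3, and that of the IGF list -0.12. That of the paternally expressed list was -0.11 with the filter at 50 and ran from -0.54 without KO replicate 1 to -0.10 without WT replicate 2. Depth limits the lowest values most, at 18.0 estimated reads for Peg3 in WT replicate 1.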

Other observations

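Cell cycle genes were described from a fixed list of 14 CDK inhibitors, G1 cyclins and their kinases, all tested. The median log2 difference was 0.39, with 12 above 0 and 2 below, and neither limma nor the authors' deposited table called any. At an unadjusted p under 0.05 there was 1, with 3.62% of all genes there, or 3 with the replicate block, with 7.42% of all genes there. Earlier results of these data were known when the list was chosen, so nothing is read from these counts. The 1 gene was Cdkn2a, which encodes the inhibitors INK4A and ARF. It had 2805, 3552 and 1835 scaled reads in WT and 5406, 5032 and 4583 in KO, so each KO library exceeded each WT library, and 8.43% of all genes tested did not overlap in either direction (limma log2 difference 0.92, SE 0.27, adjusted p = 0.999). Cdkn2c, another inhibitor of the INK4 family, had 319, 449 and 754 in WT and 691, 739 and 1052 in KO (0.77, SE 0.36), and the kinase Cdk4 had 0.48 (SE 0.25). The proliferation genes had a median of 0.57, which was -0.07 without KO replicate 3 and 1.31 without KO replicate 1.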
